A study of Mus musculus with 6 samples.

Results

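A group of 10 glucocorticoid and stress response genes was followed in the brains of newborn mice given testosterone propionate (TP), an ester that releases testosterone: Fkbp5, Tsc22d3, Sgk1, Zbtb16, Klf9, Per1, Hif3a, Pdk4, Ddit4 and Errfi1. They were taken by name, and every probe set that the array annotation assigns to 1 of them alone was used, which gave 29 of the 34945 single-gene probe sets on the array and 10 of 18193 genes. Klf9 had 7 probe sets, Hif3a 6, Tsc22d3 4, Fkbp5 and Zbtb16 3 each, Errfi1 2, and the remaining 4 genes 1 each. All animals were C57BL/6 mice, with C57BL/6J named in the treatment protocol. On postnatal day 2 each received 20 µL of sesame oil intraperitoneally, either with 1 mg of TP or, for vehicle controls, alone, and whole brains were collected on postnatal day 6. Each array carried RNA pooled from 6 animals of 1 sex and 1 treatment. Females contributed 2 TP and 2 vehicle arrays, and males 1 of each. The later female array of each treatment is labelled a replica, and nothing says that it came from another pool. P-values here thus reflect only array-to-array spread, possibly of technical origin. Where both sexes share 1 fitted TP effect, that spread also takes in any difference between the TP effects of females and males.

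Corticosterone, the main glucocorticoid of mice, enters cells and binds the glucocorticoid receptor, which leaves its chaperone complex, moves to the nucleus and binds DNA at pairs of short, mirrored sites. In the brain the mineralocorticoid receptor binds the same hormone with higher affinity, and the androgen receptor, the target of testosterone, recognises closely related DNA sites. The genes followed here are known as direct or early targets of the glucocorticoid receptor in many tissues, and several are also induced by fasting or low oxygen. The first days of life in mice are known as a stress hyporesponsive period with low circulating corticosterone.

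The genes' start sites were searched for the DNA words these pathways use, to show which promoters carry them next to the transcript values. RefSeq windows of assembly GRCm38.p6, each reaching from 250 bases before a transcript start to 50 after it, were matched by symbol for 9 genes with 18 windows, and not for Zbtb16. Each of the following is a 30-base stretch read 5′ to 3′ on the gene's strand, with the matched word in capitals.
Sgk1, glucocorticoid palindrome, chr10:21993694-21993723, plus strand: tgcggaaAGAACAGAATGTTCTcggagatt
Tsc22d3, single arm of that palindrome read on the opposite strand, chrX:140600690-140600719, minus strand: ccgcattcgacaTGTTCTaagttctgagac
Fkbp5, E-box, chr17:28486301-28486330, minus strand: gcaagggccagaCACGTGggcagcggtgaa
Per1, E-box, chr11:69098771-69098800, plus strand: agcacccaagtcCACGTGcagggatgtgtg
The palindrome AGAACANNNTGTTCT, searched on both strands, stood in 1 of the 18 windows, that of an Sgk1 transcript, 189 bases before its start, and in 3 of all 32851 windows (0.00913%). A single arm, AGAACA, was present in 4 windows of 2 genes, Sgk1 and Tsc22d3, and in 19.0% of all windows; both arms of the Sgk1 palindrome are among these matches. CACGTG, the E-box bound by clock factors, which reads the same on both strands, occurred in 3 windows, those of Fkbp5, Per1 and Sgk1, and in 7.15% of all windows. The hypoxia core ACGTG, which lies within CACGTG, was present in 6 windows of 6 genes and in 19.6% of all windows, and the core GCGTG in 10 windows of 8 genes and in 32.4% of all windows. GTAAACA, a FoxO site, stood in 1 window, that of Klf9, and in 3.65% of all windows. A match is a description of these letters in these windows and does not show that a factor binds there.

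Most of the array labels went with the sex-linked genes, but 1 did not. Xist, the RNA of the inactive X chromosome, read 12.71 and 12.61 log2 units on the female vehicle arrays, 12.81 and 12.83 on the female TP arrays and 5.29 on the male vehicle array. On the array labelled male TP it read 10.45, while the Y-linked Eif2s3y stood at 9.12 there and at 9.16 on the male vehicle array, against at most 3.09 in females. The same array stood apart for pituitary genes: growth hormone, Gh, read 8.55 there and 5.37 to 5.75 elsewhere, Pomc read 7.86 against 6.45 to 6.57, and the summed level of 7 anterior pituitary markers was 9.55 log2 units against 7.85 to 8.13. Of the other markers on that list, Tshb and Cga were higher on it than on the male vehicle array (5.54 against 4.61 and 4.84 against 4.49), while Prl, at 3.81, and Lhb, at 5.56, lay within the range of the other arrays and Fshb, at 2.68, just below it. All 9 oligodendrocyte markers measured were lower on it than on the male vehicle array, by a median of 0.29 and most for Mobp, at 7.70 against 8.49. The mean of 8 neuronal markers lay between 12.67 and 12.73 on the 6 arrays. The female groups differed in markers of neighbouring tissues too: 8 bone and cartilage markers averaged 5.71 and 5.69 on the TP arrays against 5.07 and 5.11 on the vehicle arrays, 6 of them higher, with Ibsp past the threshold (limma adjusted p = 0.0354). The 7 hair and skin markers averaged 5.80 and 5.69 with vehicle against 5.29 and 5.27 with TP, all 7 lower. The largest differences were those of Krtap16-3 at -1.52 and Krtap15 at -1.23 (limma adjusted p = 0.0539 for each). The others lay between -0.17 and -0.019, and Krt14 and Lor each had another probe set of opposite sign. The part of these tissue markers in the results below was not tested. Leaving out the array labelled male TP leaves the TP difference of the additive model equal to the female difference, so the female value beside a both-sex one is also its value without that array. In pooled whole-brain RNA, fewer cells of a type and less RNA per cell cannot be told apart.

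No response of these genes to TP passed the test on this number of arrays. Over both sexes, in an additive model of treatment and sex on 6 arrays, 0 of the 29 probe sets passed an adjusted p of 0.05 (limma with Benjamini-Hochberg adjustment over all 34945 probe sets), and 0% of all probe sets did. The smallest adjusted p among the 29 was 0.314. At an unadjusted p under 0.05 there were 2 of the 29, or 6.90%, against 12.3% of all probe sets. In 5 of the 29, or 17.2%, the 3 TP arrays lay wholly above or below the 3 vehicle arrays (3 higher and 2 lower), against 15.1% of all probe sets. Differences, TP minus vehicle, were positive for 11 and negative for 18, with a median of -0.031 log2 units against -0.020 over all probe sets. The positive share was 37.9%, against 42.2% of all probe sets. In females alone 0 of the 29 passed, where 0.00572% of all probe sets did, and the smallest adjusted p was 0.634.

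**Figure D1:**
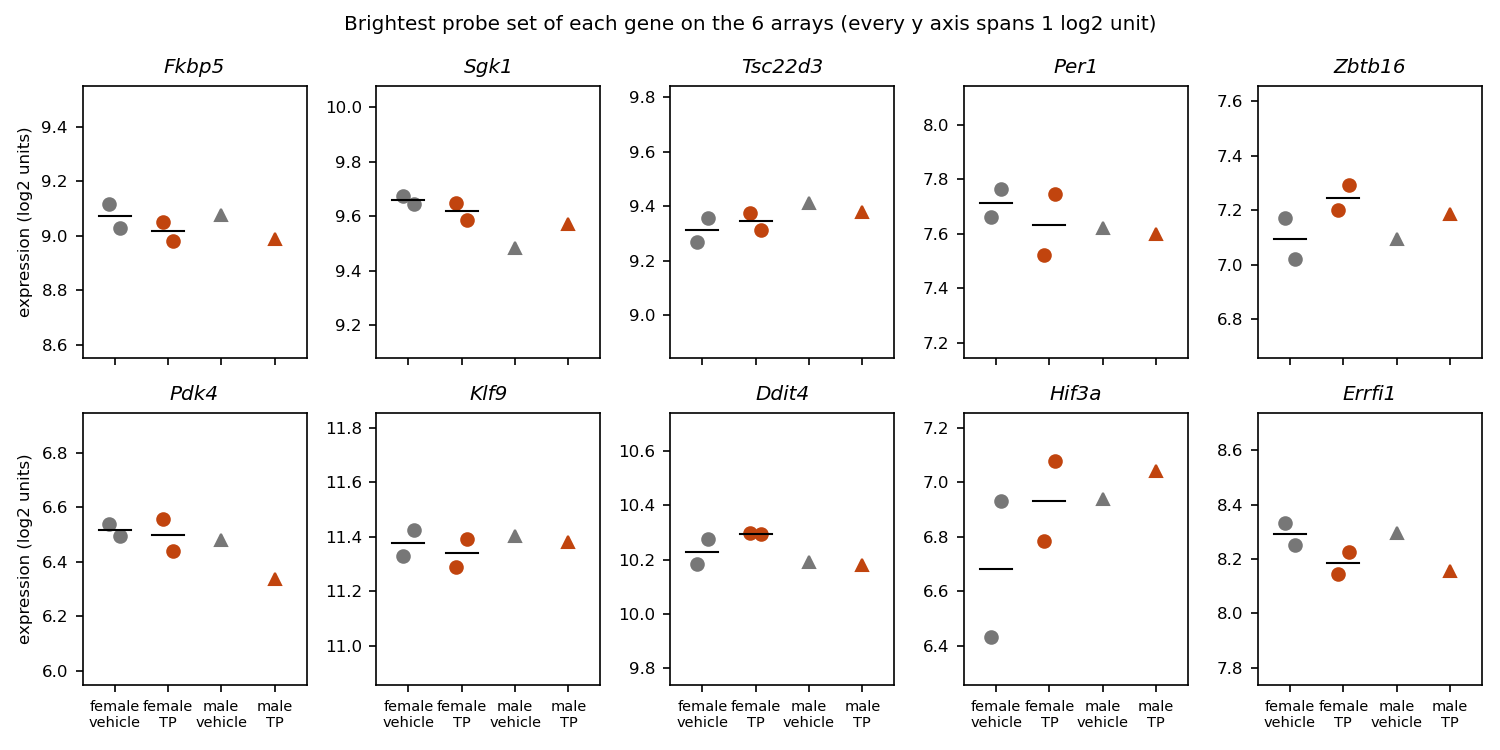
Log2 expression of the brightest probe set of each of the 10 genes on the 6 arrays; circles are female arrays, triangles male arrays, grey vehicle and orange TP, and lines mark the mean of the 2 female arrays of a group. Every y axis spans 1 log2 unit. Most points of a gene lie close together, and Hif3a is the most scattered, from 6.43 to 7.08.

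The first set of genes acts on the hormone signal itself or mediates it. Fkbp5 encodes a co-chaperone that lowers the glucocorticoid receptor's affinity for hormone, a feedback brake on the receptor. Its brightest probe set read 9.12 and 9.03 log2 units on the female vehicle arrays, 9.05 and 8.98 on the female TP arrays, 9.08 on the male vehicle and 8.99 on the male TP array. The vehicle and TP values overlapped, since the lower vehicle array lay below the higher TP array. Over both sexes the difference was -0.068 (SE 0.062, 95% interval -0.21 to 0.075; limma adjusted p = 0.683) and in females -0.057 (adjusted p = 0.898). All 3 Fkbp5 probe sets had a small negative difference in each of these fits, the lowest being -0.18 in females for a probe set near the bottom of the scale, at 2.60 and 2.54 with vehicle and 2.40 and 2.37 with TP.

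Tsc22d3, also called GILZ, is a leucine zipper protein through which glucocorticoids restrain inflammatory transcription. Its values were 9.27 and 9.36 in vehicle females, 9.38 and 9.31 in TP females, 9.41 in the vehicle male pool and 9.38 in the TP male pool. The female groups overlapped, and the difference over both sexes was 0.0092 (SE 0.062, interval -0.14 to 0.15; adjusted p = 0.966) and in females 0.031 (adjusted p = 0.954). Its 4 probe sets gave differences from -0.050 to 0.081 over both sexes and from -0.011 to 0.059 in females.

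Sgk1 is a kinase that raises sodium transport and ion channel traffic and responds within hours to corticosterone. Of its 6 promoter windows, 1 holds the palindrome shown above. Female vehicle arrays gave 9.67 and 9.64 for Sgk1, female TP arrays 9.65 and 9.59, the male vehicle array 9.48 and the male TP array 9.57. Treated and control values were interleaved in females, and both male values lay below all 4 female ones. The TP difference was 0.0033 over both sexes (SE 0.062, interval -0.14 to 0.15; adjusted p = 0.989) and -0.040 in females (adjusted p = 0.931).

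Among the transcription factors, Zbtb16 and Klf9 are induced by glucocorticoids, Zbtb16 as a zinc finger repressor and Klf9 as a Krüppel-like factor that is also a thyroid hormone target in the developing brain. For Zbtb16 the brightest probe set read 7.17 and 7.02 in vehicle females, 7.20 and 7.29 in TP females, 7.10 in vehicle males and 7.19 in TP males. All 3 TP arrays lay above all 3 vehicle arrays, by as little as 0.017 log2 units between the closest ones. The difference over both sexes was 0.13 (SE 0.068, interval -0.028 to 0.29) and did not pass (adjusted p = 0.473); in females it was 0.15 (adjusted p = 0.716). A second probe set was likewise separated, with 6.59, 6.67 and 6.60 on the vehicle arrays and 6.71, 6.74 and 6.68 on the TP arrays (difference 0.085, adjusted p = 0.589; 0.088 in females). The third, a dim one, read 5.06 and 4.92 in vehicle females and 5.16 and 5.24 in TP females, but 5.50 in vehicle males and 5.35 in TP males. Its female difference of 0.21 was the single one of the 29 with an unadjusted p under 0.05 in females (0.048; limma adjusted p = 0.634). All 3 Zbtb16 probe sets were higher in TP-treated than in vehicle females without overlap, and none passed. Of all probe sets, 38.4% did not overlap in females in either direction, and these 3 read the same pools of RNA for 1 gene.

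The 7 probe sets of Klf9 did not share 1 direction. The brightest read 11.33 and 11.42 in vehicle females, 11.29 and 11.39 in TP females, 11.40 in vehicle males and 11.38 in TP males, a difference of -0.031 over both sexes (SE 0.064, interval -0.18 to 0.12; adjusted p = 0.874) and of -0.037 in females (adjusted p = 0.945). In all, 6 of the 7 had negative differences over both sexes, down to -0.16. The exception, 1422264_s_at, gave 7.26, 7.33 and 7.18 on the vehicle arrays and 7.48, 7.38 and 7.50 on the TP arrays. These groups did not overlap, and the difference of 0.20 (SE 0.070, interval 0.036 to 0.36) had an adjusted p of 0.360. Without the array labelled male TP, which removes the male comparison and leaves the female difference, it was 0.14 (adjusted p = 0.719).

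Per1 is a clock repressor that glucocorticoids induce acutely through a nearby response element. Its single probe set read 7.66 and 7.76 in vehicle females, 7.52 and 7.74 in TP females, 7.62 in vehicle males and 7.60 in TP males. The TP females were further apart than the group means, and the difference was -0.059 over both sexes (SE 0.077, interval -0.24 to 0.12; adjusted p = 0.789) and -0.079 in females (adjusted p = 0.885).

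Hif3a, a hypoxia-inducible factor subunit whose splice forms can oppose the other subunits, varied most. The brightest probe set gave 6.43 and 6.93 in vehicle females, 6.78 and 7.08 in TP females, 6.94 in the vehicle male pool and 7.04 in the TP male pool. The vehicle females differed from each other by 0.50, more than the treatment difference of 0.20 over both sexes (SE 0.14, interval -0.12 to 0.52; adjusted p = 0.584) or of 0.25 in females (adjusted p = 0.767). The other 5 Hif3a probe sets had negative differences over both sexes. The next brightest, 1425429_s_at, stood at 5.80 and 5.52 in vehicle females, 5.62 and 5.53 in TP females, 6.07 in vehicle males and 5.47 in TP males, and its difference of -0.26 (adjusted p = 0.440) rested on the males, since the female difference was -0.085. A dim one, 1446708_at, had the smallest adjusted p of the 29 over both sexes, 0.314, with 3.51, 3.52 and 3.68 on vehicle arrays and 3.36, 3.30 and 3.39 on TP arrays (difference -0.22); at such values, on arrays whose lowest reading was 2.11, no detection call was used. In females its difference was -0.18 (adjusted p = 0.645). The Hif3a probe sets gave no common direction: over both sexes 1 was higher and 5 lower with TP, and in females 2 were higher and 4 lower, 1447061_at being lower over both sexes (-0.010) and higher in females (0.11).

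The remaining genes restrain metabolism or growth signalling. Pdk4 is a kinase that shuts pyruvate out of oxidation in fasting and is driven by both the glucocorticoid receptor and FoxO factors. It read 6.54 and 6.50 in vehicle females, 6.56 and 6.44 in TP females, 6.48 in vehicle males and 6.34 in TP males, with the male TP array lowest. The difference was -0.058 over both sexes (SE 0.066, interval -0.21 to 0.095; adjusted p = 0.753), and -0.017 in females alone (adjusted p = 0.976).

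Ddit4, also called REDD1, holds back the growth kinase mTORC1 after stress, low oxygen or glucocorticoids. Its values were the closest together of the 10, at 10.18 and 10.27 in vehicle females, 10.30 and 10.29 in TP females, 10.19 in vehicle males and 10.18 in TP males. The female groups did not overlap, but the males were level, and the difference was 0.040 over both sexes (SE 0.061, interval -0.10 to 0.18; adjusted p = 0.826) and 0.066 in females (adjusted p = 0.875).

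Errfi1, also called Mig6, is an inhibitor of the epidermal growth factor receptor. Its brightest probe set read 8.33, 8.25 and 8.30 on the vehicle arrays and 8.14, 8.22 and 8.16 on the TP arrays, in the order first female, replica female, male. Every TP array lay below every vehicle array, but the difference of -0.12 (SE 0.062, interval -0.26 to 0.025) did not pass (adjusted p = 0.474), nor did the female one of -0.11 (adjusted p = 0.778). The other Errfi1 probe set had a difference of 0.040 over both sexes and 0.024 in females, so that the gene's probe sets differed in sign.

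**Figure D2:**
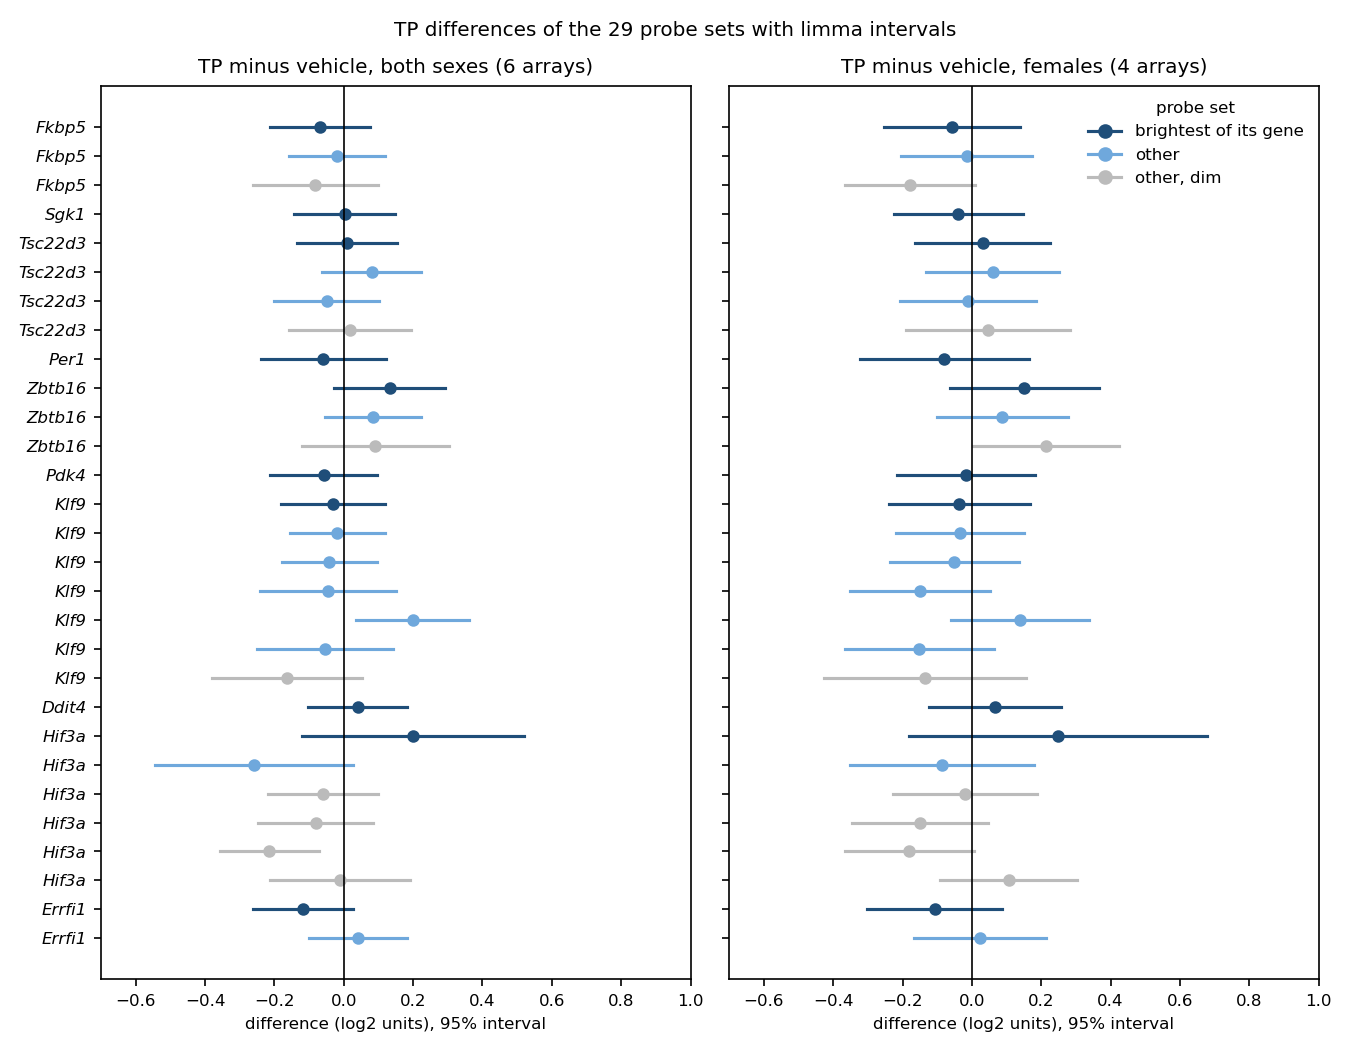
TP minus vehicle differences of the 29 probe sets in log2 units, over both sexes on the left and in females on the right, with limma 95% intervals; dark points are the brightest probe set of each gene, light blue other ones and grey the dim ones. Nearly all intervals include 0: the exceptions are 2 on the left and 1 on the right, before any adjustment for multiple tests.

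The intervals give the range of TP differences compatible with the values of these arrays. Like the p-values, they rest on array-to-array spread, possibly of technical origin. A limit on the response in other pools of mice cannot be read from them. Over both sexes all 10 brightest probe sets had intervals that included 0, and with Hif3a left aside none of their bounds reached beyond a 1.22-fold difference in either direction; for Hif3a the bound was 1.43-fold. In females the same bounds were 1.29-fold and 1.60-fold. Some other probe sets of the same genes reached further. Over both sexes Hif3a 1425429_s_at reached 1.46-fold, the furthest of the 29, and Klf9 reached 1.30-fold with the dim 1452723_at and 1.28-fold with 1422264_s_at. In females the dim Zbtb16 1427638_at and Klf9 1452723_at each reached 1.34-fold. These limits are of single probe sets, not joint ones, and are on the scale of RMA values. Among the 29, the range over the 6 arrays had a median of 0.25 log2 units, against 0.29 over all probe sets, and for those that were not dim 0.19 against 0.24. The female TP difference was larger than both within-group gaps for 9 of the 29 (31.0%) against 25.7% of all probe sets, and for 2 of the 10 brightest, Zbtb16 and Errfi1. In 14 of the 29, or 48.3%, the female groups did not overlap, 6 higher and 8 lower, against 38.4% of all; an unadjusted p under 0.05 was met by 1, or 3.45%, against 7.83% of all.

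Sex differences were asked of the same additive model, male minus female, and 0 of the 29 passed, where 0.0114% of all probe sets did. At an unadjusted p under 0.05 there were 4, or 13.8%, against 12.5% of all probe sets, all 4 higher in males and all dim. Zbtb16's dim probe set had the largest, 0.33 (adjusted p = 0.309), followed by a dim Tsc22d3 probe set with 0.27 (adjusted p = 0.309) and 2 of Hif3a with 0.23 and 0.21 (adjusted p = 0.328 and 0.344). The brighter probe sets of Zbtb16 went the other way, at -0.030 and -0.036. Those of Tsc22d3 differed in sign, at 0.067, -0.15 and 0.12. In 11 of the 29, or 37.9%, male and female arrays did not overlap, 8 higher and 3 lower in males, against 20.4% of all. All 4 Tsc22d3 probe sets are among these, in both directions, and probe sets of the same gene are not independent. All 6 Hif3a probe sets, most of them dim, were higher in males in this model, by 0.11 to 0.23, and none passed. They read the same pools of RNA for the same gene, and the sexes did not overlap only for 1421572_at and 1459052_at. For 1425429_s_at the male TP array was the lowest of all, at 5.47. For 1446708_at it read 3.39, below the vehicle females at 3.51 and 3.52. Without the array labelled male TP, the male vehicle array was the only male one left, and the Hif3a probe sets were higher there by 0.13 to 0.41. The median male minus female difference was -0.013 over all probe sets and -0.042 with dim ones left out. Dim probe sets in general thus lay higher in males relative to the others. With the array labelled male TP left out, the male vehicle array alone stood for males. The first 4 differences given were then 0.51 for Zbtb16, 0.32 for Tsc22d3 and 0.13 and 0.26 for Hif3a. Sgk1, by contrast, was lower in males by 0.11 (adjusted p = 0.516), and by 0.17 on the male vehicle array alone.

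Whether TP acted differently in the sexes was tested as the female difference minus the male one, in a model that assumed the single male arrays to vary like the female ones. None of the 29 passed (0 of 29, each with an adjusted p of 1.00 after rounding), where 0.0200% of all probe sets did, and 2 of 29, or 6.90%, had an unadjusted p under 0.05 against 4.84% of all. Both were of Hif3a: 1425429_s_at with 0.52 and the dim 1447061_at with 0.35. Without the array labelled male TP this test cannot be made. The male arrays alone, 1 a group, allow no test. TP minus vehicle in males was at least 0.25 log2 units in size for 3 of 29, or 10.3%, against 16.1% of all: Klf9 1422264_s_at at 0.32, Hif3a 1425429_s_at at -0.61 and Hif3a 1446708_at at -0.29. The pituitary and oligodendrocyte markers given above also moved between these arrays, and their part in the male values was not tested.

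Related genes of the same pathways were read beside the 10, from 6 lists and with each gene's brightest probe set. The lists hold 86 entries measured, of 84 genes, since Txnip and Bcl6 stand on a pair of lists each. None of them passed over both sexes or in females (limma adjusted p of at least 0.294 and 0.563). Their signs stand beside a background that leaned negative: 42.2% of all probe sets were positive over both sexes and 44.5% in females. Over the brightest probe set of every gene the median was -0.029 over both sexes and -0.024 in females. Of the corticosteroid receptors and their chaperones 9 of 12 were measured, 6 with positive and 3 with negative differences over both sexes and a median of 0.042, or 0.031 in females. The glucocorticoid receptor itself, Nr3c1, read 8.17, 8.32 and 8.29 on vehicle arrays and 8.36, 8.33 and 8.37 on TP arrays, a difference of 0.095 (adjusted p = 0.586; 0.099 in females), though 2 of its 6 probe sets had the opposite sign. For the mineralocorticoid receptor Nr3c2 the difference was 0.11 (adjusted p = 0.533), but 0.059 in females alone. The chaperone Hsp90aa1 gave 0.11 (adjusted p = 0.528) and 0.066 in females, and the co-chaperone Bag1 -0.10 (adjusted p = 0.513) and -0.12. Of the 5 Hsp90aa1 probe sets, 1 had the opposite sign over both sexes and 2 in females.

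**Figure D3:**
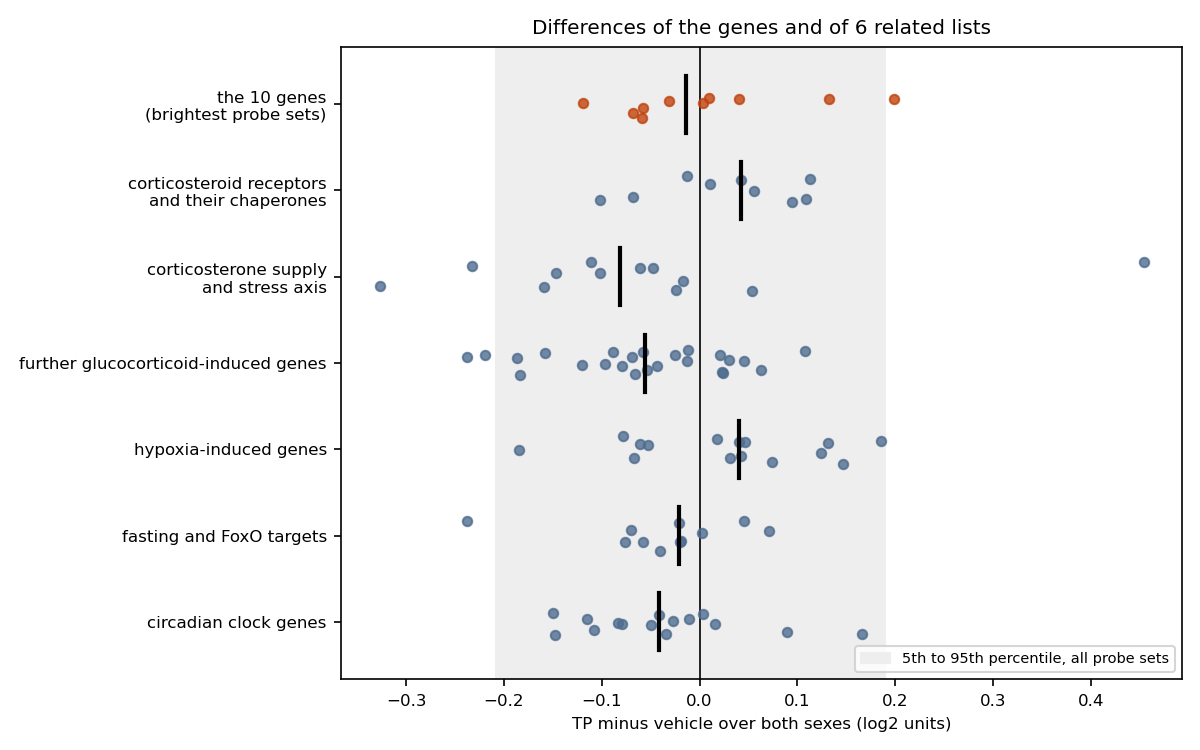
TP minus vehicle differences over both sexes in log2 units, for the brightest probe set of each of the 10 genes (orange) and of the genes in 6 related lists (blue); black bars are medians and the grey band runs from the 5th to the 95th percentile of all probe sets. List medians lie between -0.081 and 0.042; the band shows the spread of single probe sets and is no scale for a median.

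The list of corticosterone supply and the stress axis had all 12 genes measured, 2 positive and 10 negative over both sexes with a median of -0.081, and 2 positive and 10 negative in females with a median of -0.11. H6pd, which supplies the cofactor for local corticosterone regeneration, read 6.64, 6.45 and 6.53 with vehicle and 6.24, 6.21 and 6.20 with TP. These groups were separated, and the difference was -0.33 (SE 0.070; adjusted p = 0.294), with -0.32 in females. Avpr1b, a pituitary vasopressin receptor, gave -0.23 (adjusted p = 0.395) and Serpina6, the plasma corticosteroid carrier, -0.16 (adjusted p = 0.455); both are dim. With single arrays left out Avpr1b ranged from -0.34 to -0.15, the latter being its female value, and Serpina6 from -0.22 to -0.079, with -0.20 in females. Pomc, the precursor of ACTH, gave 0.45 (adjusted p = 0.500), with 7.86 on the array labelled male TP against 6.45 to 6.57 on the others; without that array the difference was -0.017.

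Among further glucocorticoid-induced genes 24 of 25 were measured, 7 positive and 17 negative, with a median of -0.056, or -0.037 in females. Cdkn1a, a cell cycle inhibitor, read 9.40, 9.49 and 9.40 with vehicle and 9.25, 9.28 and 9.20 with TP, a difference of -0.19 without overlap (adjusted p = 0.339; -0.18 in females). Txnip, an inhibitor of thioredoxin and of glucose uptake, fitted -0.24 (adjusted p = 0.378): females stood at 9.47 and 9.49 with vehicle and 9.13 and 9.09 with TP, a female difference of -0.37, while males stood at 9.15 and 9.18. Nfkbia, the inhibitor of NF-kappaB, gave -0.16 (adjusted p = 0.439; -0.11 in females), with 1 of its 5 probe sets opposite in sign, and Sult1a1 -0.12 (adjusted p = 0.455; -0.097 in females).

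The other lists cover hypoxia, fasting and the clock. Of 15 hypoxia-induced genes 10 were positive and 5 negative, with a median of 0.040, or 0.052 in females. Vegfa, the vascular growth factor, gave 0.19 (adjusted p = 0.422), the glycolytic regulator Pfkfb3 0.15 (adjusted p = 0.464), Higd1a 0.13 (adjusted p = 0.466) and the oxygen sensor Egln3 -0.19 (adjusted p = 0.390). Their female differences were smaller in size, at 0.13, 0.10, 0.084 and -0.11 in the same order. Vegfa and Pfkfb3 each had another probe set of opposite sign over both sexes, and in females only Pfkfb3 did. Fasting and FoxO targets, 11 of 12 measured, were 3 positive and 8 negative with a median of -0.021, or 0.0010 in females. Among them were Txnip again, Foxo1 at -0.076 (-0.059 in females), Ccng2 at 0.071 (0.12) and Cpt1a at -0.070 (0.0015). Ccng2 and Cpt1a each had 1 probe set of opposite sign over both sexes. Circadian clock genes, 15 of 15, were 4 positive and 11 negative with a median of -0.041, or -0.045 in females. Nr1d1, a clock repressor, gave -0.15 (adjusted p = 0.428), Per3 -0.15 with 3 of its 6 probe sets opposite in sign, Arntl -0.12 and Bhlhe40 -0.11 (adjusted p of these 3 from 0.508 to 0.538). Arntl had 1 of its 2 probe sets opposite in sign. In females Nr1d1 gave -0.18, Per3 -0.038, Arntl -0.17 and Bhlhe40 -0.085.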

How the data were processed

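Whole-brain RNA was measured on 6 Affymetrix arrays. The deposited values are log2 expression per probe set, made by the authors with RMA per the submitters' processing notes; its version and a genome build are not given in the sources used here. RMA equalises the arrays' distributions, so a shift shared by most genes would not be seen. Of 45101 probe sets, 34945 were paired with 1 gene in the platform annotation and 932 with several, which were left out. "Dim" means below the 40th percentile of mean log2 value, 5.49. Array medians lay from 5.69 to 5.74. Precision is limited by the small number of arrays.

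Tests used limma 3.58.1 under R 4.3.3 (lmFit and eBayes, two-sided, Benjamini-Hochberg over all 34945 probe sets, threshold 0.05), checked on simulated data; tables and figures used Python 3.11.15, pandas 2.3.3 and matplotlib 3.10.9. Differences over both sexes and between the sexes come from an additive model, those in females from 4 arrays. All probe sets of the 10 genes were named, and from each related list up to 4 genes with the smallest p. The genes and lists were chosen with earlier results of these data known. Alternatives covered the probe sets tested, normalization, variance moderation, a replicate block, the call rule and leaving out arrays.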

Additional observations from a re-analysis of the deposited data

Results flagged for a closer look

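Outside the 10 genes, the lists of markers gave 2 features whose TP effect differed between the sexes past the threshold (limma interaction, female difference minus male difference). For Ibsp, a bone matrix gene, it was 2.75 (adjusted p = 0.00680): females read 4.54 and 4.41 with vehicle and 6.19 and 6.04 with TP, and males 4.61 and 3.49. For Xist it was -5.00 (adjusted p = 0.000143), with the array labelled male TP between the vehicle male and the females. Each rests on 1 array per male group.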

How the results depend on the processing

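In all alternatives run, 0 of the 29 probe sets passed in any comparison, and the smallest adjusted p in any of 484 alternatives for individually named ones was 0.191. Signs were less stable: 34 of those 484 reversed, touching 15 of 44 results. Quantile normalization again turned 5: over both sexes Sgk1 to -0.0096, Tsc22d3 to -0.0030 and Hif3a 1447061_at to 0.024, and in females Pdk4 to 0.0040 and Hif3a 1421572_at to 0.010. Centring each array on its median turned Hif3a 1447061_at to 0.018 over both sexes, and in females Pdk4 to 0.0065 and Hif3a 1421572_at to 0.0026. Averaging a gene's probe sets turned Hif3a to -0.071 over both sexes and -0.014 in females, and Arntl to 0.013.

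Leaving out 1 array at a time gave these ranges over both sexes: -0.040 to 0.033 for Sgk1, -0.022 to 0.031 for Tsc22d3 and -0.036 to 0.056 for its dim 1444365_at, -0.12 to 0.010 for Per1, -0.060 to 0.00022 for Klf9, -0.077 to 0.11 for Hif3a 1447061_at, -0.017 to 0.62 for Pomc and -0.099 to 0.0015 for Cpt1a. In females they were -0.075 to 0.041 for Pdk4, -0.00048 to 0.50 for the brightest Hif3a probe set, -0.22 to 0.052 for 1425429_s_at, -0.077 to 0.035 for 1421572_at, -0.013 to 0.075 for Tsc22d3, -0.034 to 0.13 for 1444365_at, -0.19 to 0.033 for Per1 and -0.089 to 0.016 for Klf9. The cause was not tested.

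Calls over all probe sets moved more. Over both sexes 0 passed (4304 at an unadjusted p under 0.05), with an intensity trend in eBayes 38, by groups that do not overlap and differ by at least 0.25 log2 units 1118, and without 1 array 0 to 2, the 2 without either male array. In females 2 passed, with the brightest probe sets 5, centred 6, normalized again 6, with the trend 16, without dim ones 1, by the overlap rule 2075, and 0 (at an unadjusted p, 1433 to 4415) without any 1 of the 4 female arrays. Between the sexes 4 passed, with the trend 37, without dim ones 0 (3321 at an unadjusted p) and without 1 array 3 to 14, 14 without the male vehicle array. For the difference of TP effects 7 passed, with the brightest or averaged probe sets 2 and with the trend 12.

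With original or replica array as a replicate block 0 passed over both sexes, 2 in females, 2 between the sexes and 7 for the difference of TP effects, and 0 of the 29. Deviations of same-numbered arrays correlated at 0.11 over 2 pairs, too few to show that the numbers pair the arrays.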
